A study of Mus musculus with 8 samples.

Results

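The 9 genes described here, Itga2, Itga3, Itga6, Itgav, Itgb1, Itgb4, Itgb5, Itgb6 and Itgb8, encode integrin subunits of follicle epithelium. They were chosen by gene symbol, and all 9 were listed in each of 3 tables of gene expression, among 22958 entries in each of 2 tables and 37026 named loci in the third. The study measured RNA by sequencing in 8 libraries of mouse hair follicle cells of mixed strain, and asked what is lost or gained when Bmpr1a, through which cells sense bone morphogenetic proteins (BMPs), is deleted. The first table held bulge hair follicle stem cells (HFSCs) of K15-CrePGR mice at postnatal day 68, with 1 cKO library and 1 Het library. The second held transit-amplifying cells (TACs), the dividing progeny at the base of the follicle, from Shh-CreER mice at day 68, again with 1 cKO and 1 Het library. The third held hair bulb TACs from the K15-CrePGR cross at day 80, with samples KO 64 and KO 84 and control samples WT 52 and WT 57. The deleted genotype is Bmpr1a fl/fl with the Cre named. K15-CrePGR, driven by the keratin 15 promoter, acts in bulge stem cells, from which the TACs of that cross derive, while Shh-CreER acts in cells that express Shh. The controls are labelled Het for Bmpr1a in the first 2 tables and WT in the third. Their labels name the Cre of the cross too, without saying more on whether these controls carried it. How the Cre was induced and how cells were collected or pooled is not stated by the labels.

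Integrins are receptors of paired alpha and beta subunits that bind extracellular matrix outside the cell and the cytoskeleton inside it. In skin, alpha6 beta4 is the integrin of hemidesmosomes, which fasten basal cells to laminin-332, while alpha3 beta1 binds laminins and alpha2 beta1 binds collagens. The alphav chain pairs with beta5, beta6 or beta8. Integrins alphav beta6 and alphav beta8 are known for releasing active TGF-beta from its latent complex. Bulge stem cells are often isolated by high surface alpha6, which can bear on Itga6 levels if it was used here.

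The libraries carried markers of the labelled cells, with markers of other cell types beside them. Summed FPKM (a read level per transcript length and per library size) of 7 bulge markers were 674 in cKO and 1327 in Het HFSCs, and lay between 43.3 and 275 in TACs. In HFSCs the gap lay mostly in Cd34 (147 FPKM in cKO and 556 FPKM in Het) and Krt24 (46.1 FPKM in cKO and 365 FPKM in Het). Of the 7, 3 were higher in cKO, among them Sox9 (120 FPKM in cKO and 59.4 FPKM in Het), and the median log2 difference was -0.08. Summed FPKM of hair shaft keratins (6 genes, 5 of them listed in K15-CrePGR TACs) were 17.9 in cKO and 7.93 in Het HFSCs, and between 444 and 4946 in TACs. Fibroblast markers (6 genes) summed to at most 8.31 FPKM in HFSCs, and to between 402 and 1472 FPKM in TACs. Sample KO 64 stood apart, with 1472 FPKM of fibroblast and 796 FPKM of immune markers, against 455 and 134 FPKM in KO 84, 402 and 94.7 FPKM in WT 52, and 425 and 22.0 FPKM in WT 57. Endothelial markers summed to 26.7 FPKM in KO 64, against 3.52, 2.70 and 1.15 FPKM in KO 84, WT 52 and WT 57. Melanocyte markers summed to 92.9 FPKM in KO 64, against 34.7, 24.3 and 22.3 FPKM in KO 84, WT 52 and WT 57. Of markers averaging 1 FPKM or more, 5 of 6 fibroblast and 4 of 4 immune ones were higher in both KO samples than in both WT samples. This held for 26.8% of all loci, and Pdgfra and Ptprc reached 1 FPKM only through the KO samples. The exception, Dcn, had 291 FPKM in KO 84, against 284 and 382 FPKM in WT 52 and WT 57, most of those fibroblast sums. Bmpr1a transcript was present in all 8 libraries, between 31.8 and 46.0 FPKM, which does not check the excision of part of the gene. In bulk samples, fewer cells of a type and less RNA per cell cannot be told apart.

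Starting with levels, the control libraries of stem cells and of hair bulbs differed in which integrins led. In Het HFSCs the order was Itgb4 (128.6 FPKM), Itgb1 (96.0), Itga6 (75.0), Itga3 (49.2), Itgb5 (38.8), Itgav (24.9), Itga2 (12.3), Itgb6 (10.9) and Itgb8 (8.19 FPKM). In Het TACs of Shh-CreER mice the order was led by Itgb1 (87.5 FPKM) and Itgb5 (72.8 FPKM), and Itgb4 stood at 18.4 FPKM, in the fifth place. FPKM are scaled to transcript length, so these levels can be set beside each other within a library. In WT TACs of the K15-CrePGR cross Itgb1 (42.3 ± 1.15 FPKM, SD, n = 2) and Itgb5 (33.8 ± 3.07 FPKM) led as well. Behind them came Itga6 (15.8 ± 4.56 FPKM), Itgav (11.9 ± 0.0910 FPKM) and Itga3 (10.1 ± 1.77 FPKM), in that order in both WT samples. Itga6 exceeded Itgav by less than its own SD. Then came Itgb4 (5.28 ± 2.30 FPKM), Itgb6 (2.14 ± 0.779 FPKM), Itga2 (0.910 ± 0.170 FPKM) and Itgb8 (0.50 ± 0.282 FPKM), with Itga2 above Itgb8 in both WT samples. The 3 tables were normalized separately, so a level in one was not tested against a level in another.

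**Figure D1:**
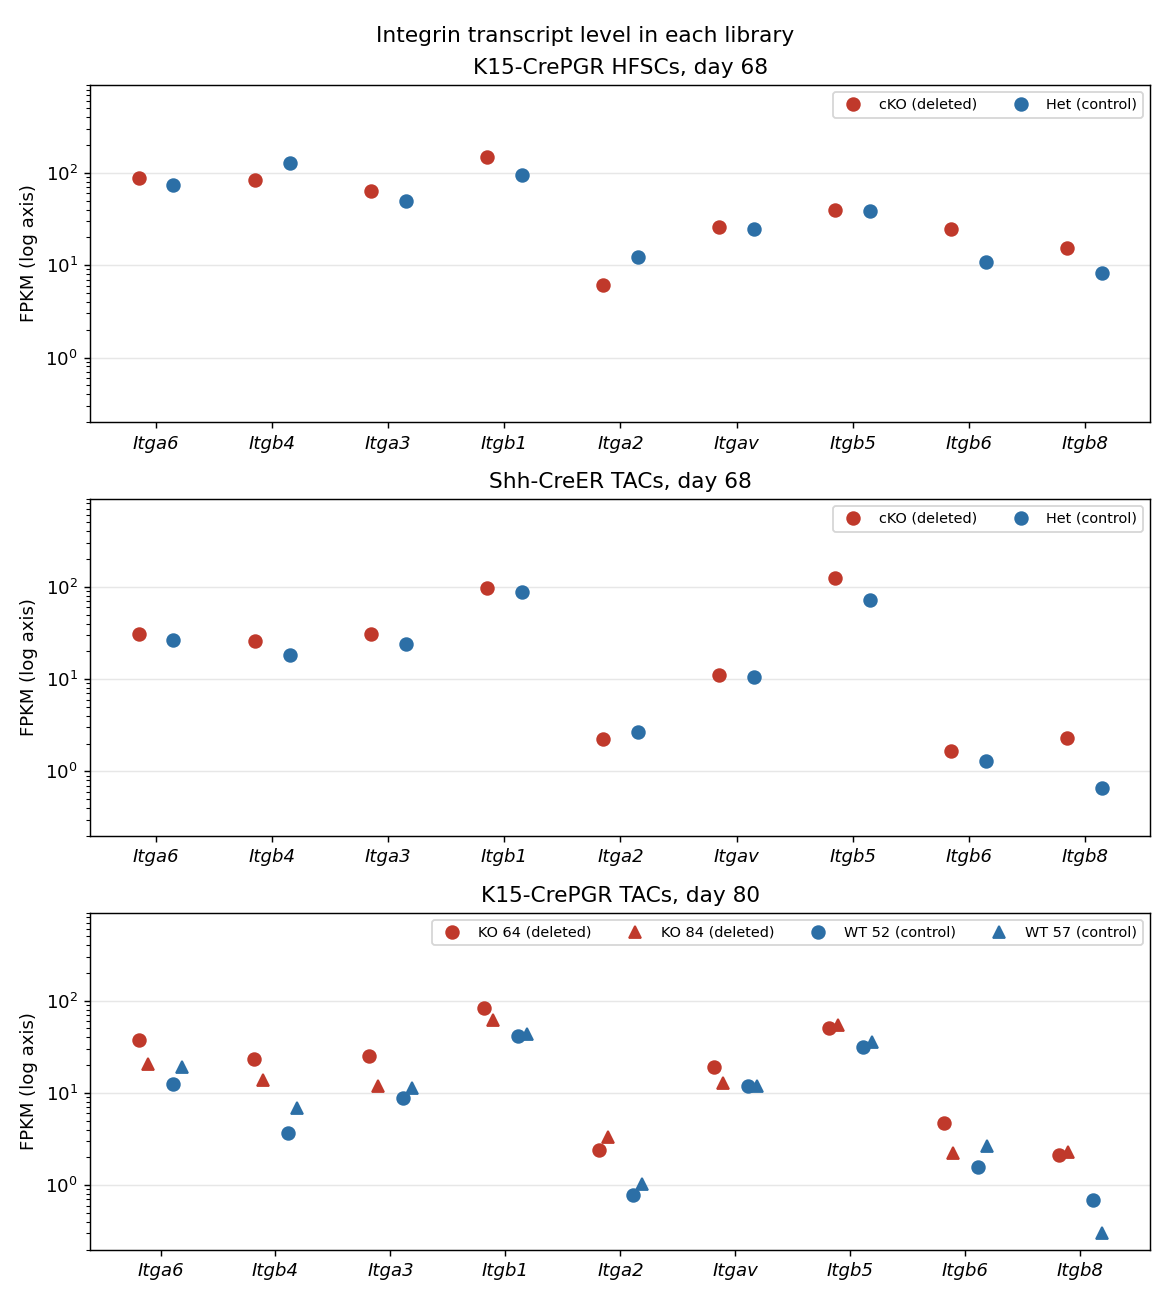
FPKM (log axis) of the 9 integrin genes in every library, with deleted libraries in red and control libraries in blue; each point is 1 library. Itgb4 leads in Het HFSCs at 128.6 FPKM and stands at 3.66 and 6.91 FPKM in the WT bulbs, and in K15-CrePGR TACs both KO points lie above both WT points for every gene but Itgb6.

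The deleted libraries kept Itgb1 among the 2 highest integrins throughout. It was the highest in cKO HFSCs (150.3 FPKM), KO 64 (83.7 FPKM) and KO 84 (61.3 FPKM), and came behind Itgb5 in cKO TACs of Shh-CreER mice (96.3 FPKM). The 9 genes together summed to 497 FPKM in cKO and 444 FPKM in Het HFSCs. In Shh-CreER TACs the sum was 324 FPKM in cKO and 244 FPKM in Het. In K15-CrePGR TACs it was 249 FPKM in KO 64 and 183 FPKM in KO 84, against 113 FPKM in WT 52 and 132 FPKM in WT 57, so the groups did not overlap.

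In bulge stem cells without Bmpr1a, the integrin subunits differed from control in both directions. The cKO library was higher for Itgb6, Itgb8, Itgb1 and Itga3 and lower for Itga2 and Itgb4, and 1 gene of the 9, Itgb6, differed at least 2-fold on FPKM + 1. On FPKM itself Itga2 also did, with a cKO to Het ratio of 0.499. Among the 12205 genes that averaged 1 FPKM or more, 5.92% were higher and 4.6% were lower by 2-fold or more. By any amount 7 of the 9 were higher, against 54.2% of all genes. There was 1 library per genotype, so no difference in these cells has a replicate check or a test. The libraries also differed in sex-linked transcripts, with Xist at 3.98 FPKM in cKO and 68.9 FPKM in Het and Ddx3y at 23.2 FPKM in cKO and 0.255 FPKM in Het, so genotype and sex cannot be told apart here. Differences are given as log2 of FPKM + 1, which understates those of low genes.

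Among the laminin receptors of the stem cells, Itgb4, the beta chain that pairs only with alpha6, had 83.8 FPKM in cKO and 128.6 FPKM in Het (log2 difference -0.61). Its partner Itga6 had 87.8 FPKM in cKO and 75.0 FPKM in Het (0.23), so Itgb4 was lower where Itga6 was not. Itga3 had 63.7 FPKM in cKO and 49.2 FPKM in Het (0.37). Itgb1, the shared partner of alpha2, alpha3, alpha6 and alphav, had 150.3 FPKM in cKO and 96.0 FPKM in Het (0.64), the third largest positive difference of the 9. The collagen receptor chain Itga2 had 6.14 FPKM in cKO and 12.3 FPKM in Het (-0.90), the largest negative difference of the 9.

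Among the alphav group of the stem cells, the alpha chain and the TGF-beta-activating beta chains went apart. Itgav had 26.0 FPKM in cKO and 24.9 FPKM in Het (0.06), and Itgb5, a receptor chain for vitronectin, had 39.4 FPKM in cKO and 38.8 FPKM in Het. The difference of Itgb5 (0.02) turned to -0.0152 with the libraries scaled to equal medians and to -0.0139 with quantile normalization. Itgb6, a beta chain of epithelia that is high in wounds, had 24.5 FPKM in cKO and 10.9 FPKM in Het (1.10). Itgb8 had 15.4 FPKM in cKO and 8.19 FPKM in Het (0.83). With a pseudocount of 5 in place of 1, 0 of the 9 genes reached 2-fold.

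Ratios of 2 subunits within a library do not depend on how libraries were scaled. In HFSCs the Itgb4 over Itga6 ratio was 0.954 in cKO and 1.72 in Het. The Itgb6 over Itgav ratio was 0.941 in cKO and 0.436 in Het, and the Itgb8 over Itgav ratio was 0.590 in cKO and 0.329 in Het. The Itgb5 over Itgav ratio was 1.51 in cKO and 1.56 in Het. Transcript ratios say nothing of which pairs formed at the cell surface.

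**Figure D2:**
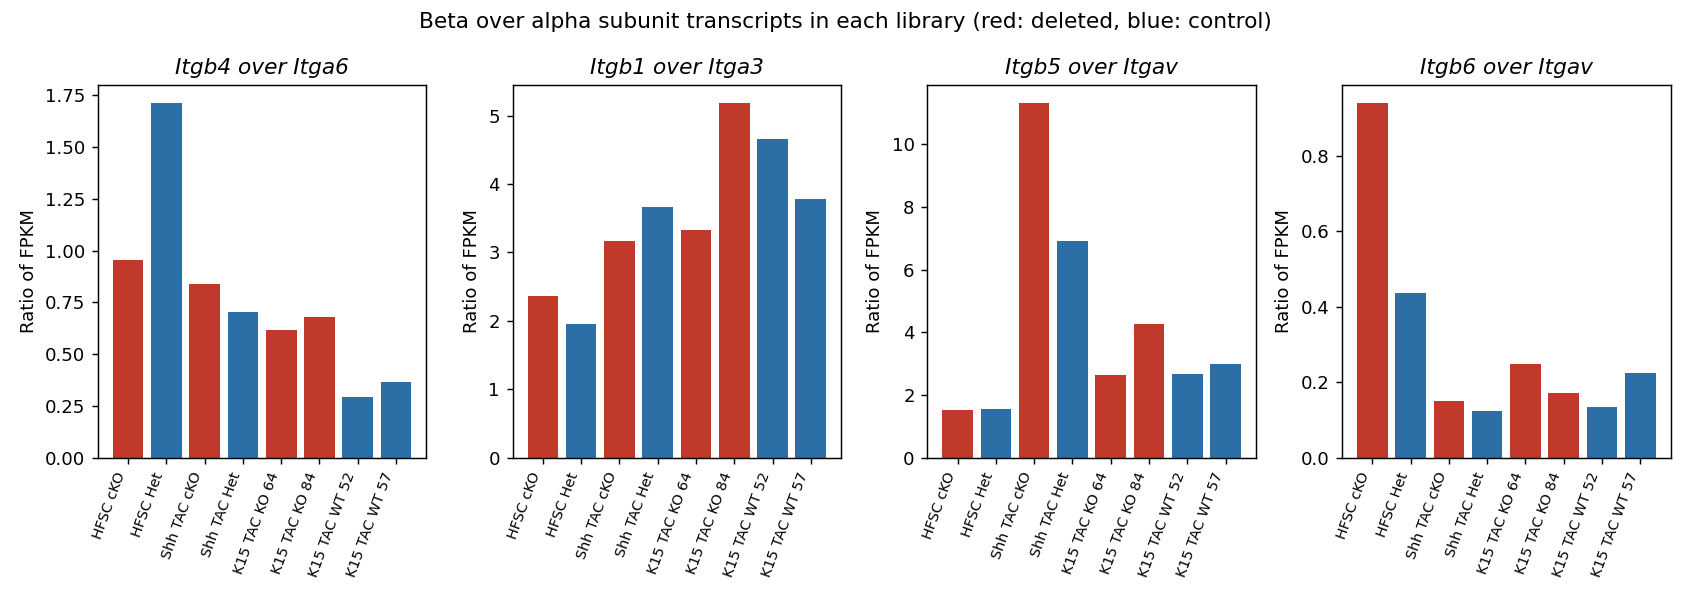
Ratio of FPKM of a beta over an alpha subunit in each of the 8 libraries, deleted in red and control in blue; each bar is 1 library and all axes start at 0. The Itgb4 over Itga6 ratio is 0.954 in cKO and 1.72 in Het HFSCs, while in K15-CrePGR TACs it is 0.617 and 0.679 in the KO samples, above 0.292 and 0.364 in the WT samples.

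In Shh-CreER TACs without Bmpr1a, the cKO library was higher for 8 of the 9 genes, against 51.2% of all 12296 genes, and lower for Itga2. At the threshold of 2-fold on FPKM + 1 there were 0 of 9, against 2.67% of all genes higher and 2.77% lower. With a pseudocount of 0.1, Itgb8 passed (log2 difference 1.67). These are again single libraries with no test, and with quantile normalization Itgav was lower too (-0.0101).

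The largest differences in Shh-CreER TACs were in beta chains that pair with alphav. Itgb8 had 2.29 FPKM in cKO and 0.652 FPKM in Het (log2 difference 0.99), and reached a mean of 1 FPKM only through the cKO library. Itgb5 had 124.3 FPKM in cKO and 72.8 FPKM in Het (0.76), which placed it above Itgb1 in cKO. Itgav itself had 11.0 FPKM in cKO and 10.5 FPKM in Het (0.06), so the Itgb5 over Itgav ratio was 11.3 in cKO and 6.92 in Het. Itgb6 had 1.64 FPKM in cKO and 1.29 FPKM in Het (0.20), so the 2 chains tied to TGF-beta release were low in both libraries.

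Of the laminin and collagen receptors in Shh-CreER TACs, Itgb4 had 25.6 FPKM in cKO and 18.4 FPKM in Het (0.45), and Itga3 had 30.4 FPKM in cKO and 23.9 FPKM in Het (0.34). Itga6 had 30.5 FPKM in cKO and 26.3 FPKM in Het (0.21), and Itgb1 had 96.3 FPKM in cKO and 87.5 FPKM in Het (0.14). Itga2 had 2.22 FPKM in cKO and 2.66 FPKM in Het (-0.18). The Itgb4 over Itga6 ratio was 0.838 in cKO and 0.702 in Het, and the Itga3 over Itga6 ratio was 0.997 in cKO and 0.910 in Het, so both laminin-binding alpha chains stood near each other.

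**Figure D3:**
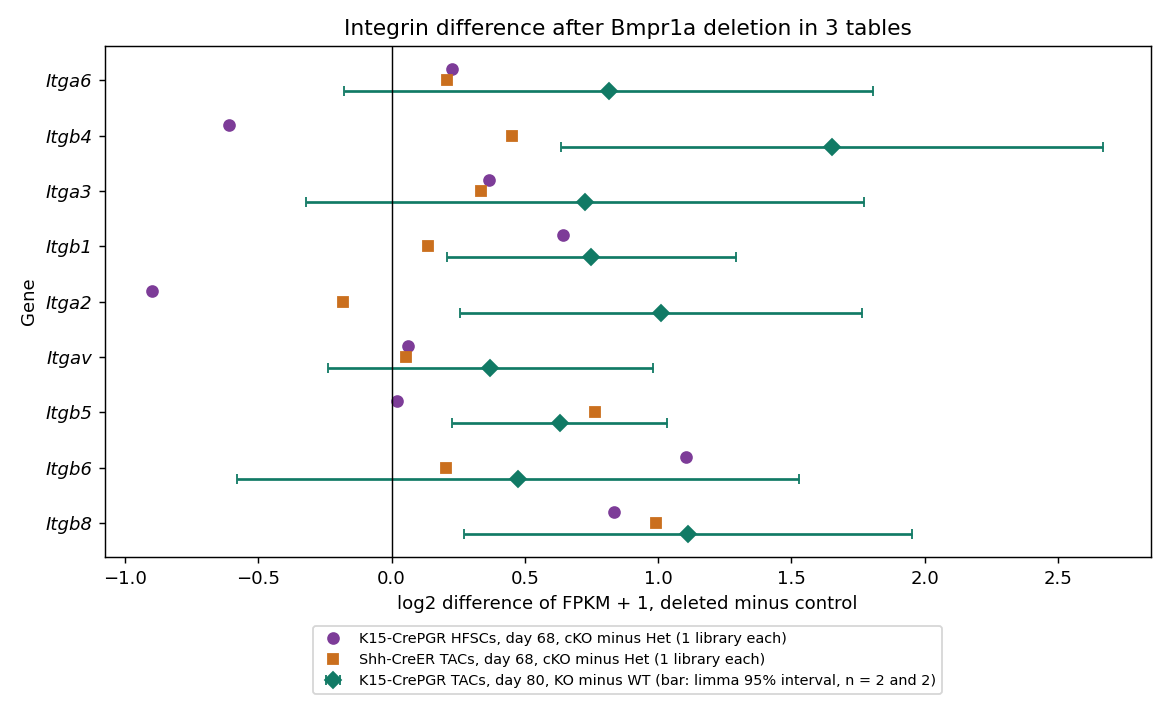
Log2 difference of FPKM + 1, deleted minus control, for each integrin gene in each table; circles and squares are single-library comparisons and diamonds the limma estimate of K15-CrePGR TACs with its 95% interval (n = 2 and 2). All 9 diamonds lie right of 0, with the interval clear of 0 for 5 genes, while Itgb4 (-0.61) and Itga2 (-0.90) lie left of 0 in HFSCs.

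In K15-CrePGR TACs, every integrin gene averaged higher in KO than in WT samples, but none passed the test. Both KO samples lay above both WT samples for 8 of the 9 genes, against 26.8% of the 13565 named loci that averaged 1 FPKM or more, and Itgb6 was the exception. For 0 of the 9 genes did both lie below, against 27.5% of those loci. On FPKM + 1, Itgb4, Itgb8 and Itga2 were at least 2-fold higher, against 10.1% of all loci at least 2-fold higher and 2.55% lower. With a pseudocount of 5 or with quantile normalization 1 gene, Itgb4, was, while Itgb8 differed by 0.39 and 0.71 and Itga2 by 0.41 and 0.64. By limma with Benjamini-Hochberg adjustment 0 of 9 genes passed 0.05 (adjusted p between 0.175 and 0.546), as did 0.0663% of all loci (0.0369% higher and 0.0295% lower). At an unadjusted limma p under 0.05 there were 5 of 9 genes (Itga2, Itgb1, Itgb4, Itgb5 and Itgb8), against 10.3% of all loci higher at that level. The median log2 difference of the 9 was 0.75, against -0.03 over all loci. Itgb8 and Itga2 reached a mean of 1 FPKM only through the KO samples, so these counts lean towards higher values by construction for 2 of the 9.

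The K15-CrePGR TAC table lists a span in build mm9 for each gene. The alpha chains lie at chr13:115623289-115722328 (Itga2), chr11:94905787-94938204 (Itga3), chr2:71583672-71696595 (Itga6) and chr2:83563931-83723643 (Itgav). The beta chains lie at chr8:131209553-131257100 (Itgb1), chr11:115836022-115869726 (Itgb4), chr16:33829750-33949239 (Itgb5), chr2:60436348-60560700 (Itgb6) and chr12:120396494-120477275 (Itgb8). The same span as for Itgav is listed for Fam171b, and the same as for Itgb4 for B230344G16Rik, each as an entry of its own.

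Of the 5 genes with an unadjusted p under 0.05, RefSeq promoters were listed for 4, in build GRCm38.p6, and they are shown because their KO and WT samples were furthest apart for their spread. Each is the 250 bases upstream of the start, on the strand of the gene. Itgb1 lies on the plus strand at chr8:128685404-128685653 and Itgb5 on the plus strand at chr16:33829415-33829664. Itgb8 lies on the minus strand at chr12:119238277-119238526 and Itga2 on the minus strand at chr13:114932101-114932350. Capitals mark matches, on either strand, to 4 motifs searched: AP-1 (TGANTCA), TEAD (GGAATG), a GC element bound by SMAD1/5 (GGCGCC) and the GC box (GGGCGG).
Itgb1: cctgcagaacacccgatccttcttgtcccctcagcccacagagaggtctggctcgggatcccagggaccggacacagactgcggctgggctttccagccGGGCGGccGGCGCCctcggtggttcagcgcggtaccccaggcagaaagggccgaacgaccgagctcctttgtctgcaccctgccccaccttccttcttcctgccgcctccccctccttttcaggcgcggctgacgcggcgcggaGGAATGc
Itgb5: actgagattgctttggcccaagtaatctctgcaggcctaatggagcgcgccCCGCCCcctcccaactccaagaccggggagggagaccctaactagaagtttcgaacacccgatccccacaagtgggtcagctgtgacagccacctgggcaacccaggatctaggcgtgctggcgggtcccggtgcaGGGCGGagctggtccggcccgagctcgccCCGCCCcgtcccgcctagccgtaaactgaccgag
Itgb8: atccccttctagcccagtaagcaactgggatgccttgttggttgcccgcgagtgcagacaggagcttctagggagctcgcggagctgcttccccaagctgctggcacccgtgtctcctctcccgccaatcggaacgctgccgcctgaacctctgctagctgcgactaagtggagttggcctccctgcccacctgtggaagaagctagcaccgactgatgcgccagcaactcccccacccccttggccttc
Itga2: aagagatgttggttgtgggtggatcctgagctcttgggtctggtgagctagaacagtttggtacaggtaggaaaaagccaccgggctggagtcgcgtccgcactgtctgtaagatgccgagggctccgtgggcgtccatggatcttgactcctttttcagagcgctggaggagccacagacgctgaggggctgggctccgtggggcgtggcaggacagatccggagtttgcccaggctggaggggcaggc
Of 32851 promoters of this length, 6.75% held the AP-1 motif, 12.6% the TEAD motif, 9.59% the SMAD1/5 element and 32.7% the GC box. The Itgb1 promoter held 1 SMAD1/5 element, from 143 to 138 bases before the start, 1 GC box just before it, from 151 to 146, and 1 TEAD motif, from 7 to 2 bases before the start. The Itgb5 promoter held 3 GC boxes, while those of Itgb8 and Itga2 held none of the 4 motifs in this window. Promoters were listed for 7 of the 9 genes, all but Itga6 and Itgb4. A match describes the letters only and is no sign of binding.

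Itgb4 had 23.3 and 14.0 FPKM in KO 64 and KO 84, against 3.66 and 6.91 FPKM in WT 52 and WT 57. The groups did not overlap, and the lower KO sample stood above the higher WT sample (log2 difference 1.65 ± 0.38, SE; limma unadjusted p = 0.00990, adjusted p = 0.175). Its partner Itga6 had 37.8 and 20.6 FPKM in KO 64 and KO 84, against 12.5 and 19.0 FPKM in WT 52 and WT 57. Here KO 84 lay just above WT 57 (log2 difference 0.81 ± 0.37, SE; limma adjusted p = 0.341). The Itgb4 over Itga6 ratio was 0.617 and 0.679 in KO 64 and KO 84, against 0.292 and 0.364 in WT 52 and WT 57, so the ratio did not overlap either. For 1 value with 2 samples against 2, an exact two-sided permutation test cannot go below p = 0.333.

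Itga3 had 25.1 and 11.8 FPKM in KO 64 and KO 84, against 8.89 and 11.4 FPKM in WT 52 and WT 57. Only KO 64 stood clear of the WT samples (log2 difference 0.73 ± 0.39, SE; limma adjusted p = 0.397). Itgb1 had 83.7 and 61.3 FPKM in KO 64 and KO 84, against 41.4 and 43.1 FPKM in WT 52 and WT 57. The WT samples lay close together and both KO samples stood well above them (0.75 ± 0.20, SE; limma unadjusted p = 0.0178, adjusted p = 0.208). Itga2 had 2.41 and 3.33 FPKM in KO 64 and KO 84, against 0.790 and 1.03 FPKM in WT 52 and WT 57. Both KO samples were above the WT samples at low levels (1.01 ± 0.28, SE; limma unadjusted p = 0.0197, adjusted p = 0.216).

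Of the alphav group, Itgb5 had 50.7 and 54.9 FPKM in KO 64 and KO 84, against 31.6 and 36.0 FPKM in WT 52 and WT 57. It had the smallest standard error of the 9 (log2 difference 0.63 ± 0.15, SE; limma unadjusted p = 0.0115, adjusted p = 0.184). Itgav had 19.1 and 12.9 FPKM in KO 64 and KO 84, against 11.9 and 11.99 FPKM in WT 52 and WT 57. KO 84 lay barely above the WT samples (0.37 ± 0.23, SE; limma adjusted p = 0.442). A second locus of the same name and span, which was not used, had 0.840 and 3.48 FPKM in KO 64 and KO 84, against 1.27 and 2.46 FPKM in WT 52 and WT 57.

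Itgb6 had 4.74 and 2.22 FPKM in KO 64 and KO 84, against 1.59 and 2.69 FPKM in WT 52 and WT 57. KO 84 lay between the WT samples, so the groups overlapped (0.48 ± 0.39, SE; limma adjusted p = 0.546, 95% interval -0.58 to 1.53). Itgb8 had 2.11 and 2.31 FPKM in KO 64 and KO 84, against 0.699 and 0.301 FPKM in WT 52 and WT 57. The KO samples nearly coincided, above both WT samples (1.11 ± 0.31, SE; limma unadjusted p = 0.0206, adjusted p = 0.220). The Itgb8 over Itgav ratio was 0.110 and 0.180 in KO 64 and KO 84, against 0.0589 and 0.0251 in WT 52 and WT 57.

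Sex-linked transcripts also set WT 52 apart. Ddx3y had 0.0259 and 0.753 FPKM in KO 64 and KO 84, against 26.4 and 0.0812 FPKM in WT 52 and WT 57, and Xist had 209.7 and 226 FPKM in KO 64 and KO 84, against 3.26 and 175 FPKM in WT 52 and WT 57; their part in the integrin differences was not tested.

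Which KO sample was further from the WT samples differed by gene. Against the WT mean, KO 64 was further above than KO 84 for 6 of the 9 genes, with medians of 0.97 and 0.53 on the log2 scale, while 44.3% of all loci were higher in KO 64 than in KO 84. For Itga3, Itgav, Itga6 and Itgb6 the difference in KO 84 alone was 0.21, 0.10, 0.39 and 0.06, against 1.24, 0.64, 1.24 and 0.89 in KO 64. For Itga2, Itgb5 and Itgb8 KO 84 was the further above, at 1.18, 0.69 and 1.16, against 0.84, 0.57 and 1.07 in KO 64. At an unadjusted limma p under 0.05, in either direction, there were 5 of the 9 genes and 17.4% of all loci. Without KO 64 these were 4 genes and 18.4% of loci, and without KO 84 they were 8 genes and 27.5% of loci. Without WT 52 they were 1 gene and 6.75% of loci, and without WT 57 they were 2 genes and 6.96% of loci, so the counts over all loci moved too. None of the 9 passed adjustment by limma in any of these.

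**Figure D4:**
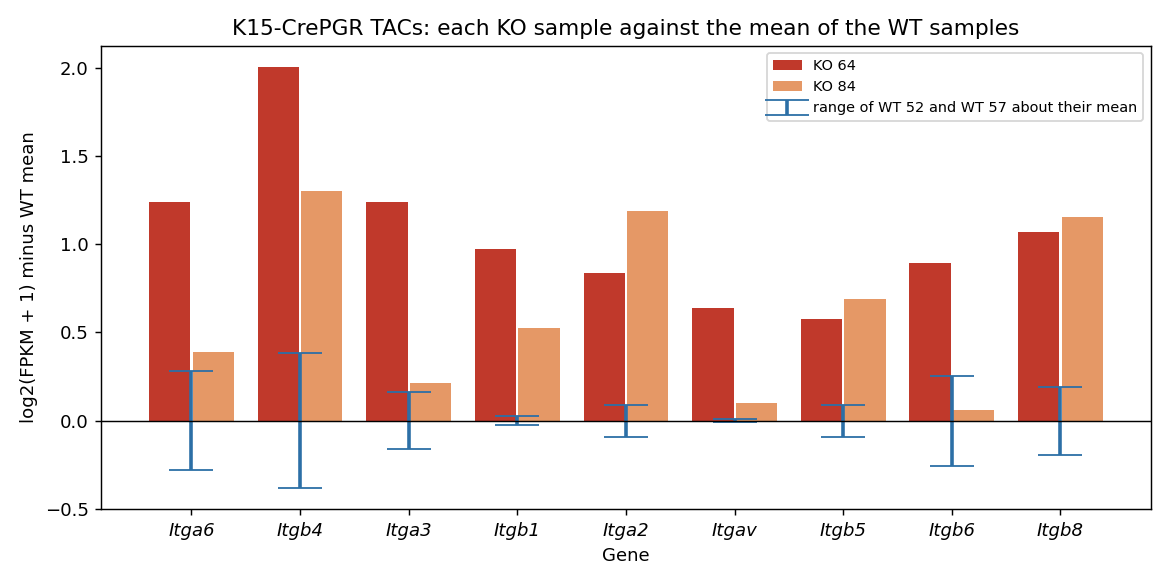
Log2(FPKM + 1) of KO 64 (red) and KO 84 (orange) minus the mean of WT 52 and WT 57 for each integrin gene in K15-CrePGR TACs; each bar is 1 sample and starts at 0, and the blue bars span both WT samples. KO 64 is further from the WT mean for 6 of the 9 genes, and KO 84 lies within the WT range for Itgb6.

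Markers of basal and other cells also differed between KO and WT samples in these bulbs, some higher and some lower in KO. The 6 basal keratinocyte markers, which include Col17a1 and Dst, summed to 2009 and 2925 FPKM in KO 64 and KO 84, against 740 and 808 FPKM in WT 52 and WT 57. Both KO samples lay above both WT samples for 5 of these 6 markers, against 26.8% of all loci. Among the 5 was Krt14, with 405 and 556 FPKM in KO 64 and KO 84, against 139 and 84.04 FPKM in WT 52 and WT 57. Bulge markers (7 genes) summed to 256 and 275 FPKM in KO 64 and KO 84, against 70.4 and 59.2 FPKM in WT 52 and WT 57. Hair shaft keratins summed to 790 and 645 FPKM in KO 64 and KO 84, against 2744 and 2253 FPKM in WT 52 and WT 57. Inner root sheath markers (6 genes) summed to 1427 and 1242 FPKM in KO 64 and KO 84, against 4281 and 4560 FPKM in WT 52 and WT 57. Smooth muscle markers (4 genes) summed to 128 and 75.7 FPKM in KO 64 and KO 84, against 21.6 and 20.2 FPKM in WT 52 and WT 57. The part of these markers, and of the fibroblast, immune, endothelial and melanocyte markers, in the integrin differences was not tested.

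In HFSCs the basal markers went the other way, at 17201 FPKM in cKO and 22635 FPKM in Het, with Krt14 at 5659 FPKM in cKO and 4045 FPKM in Het and Krt15 at 3075 FPKM in cKO and 7834 FPKM in Het. The outer root sheath and companion layer markers summed to 5761 FPKM in cKO and 2158 FPKM in Het. In HFSCs, smooth muscle markers summed to 94.6 FPKM in cKO and 11.0 FPKM in Het, and markers of dividing cells to 147 FPKM in cKO and 36.1 FPKM in Het. Immune markers (6 genes) summed to 99.996 FPKM in cKO and 236 FPKM in Het HFSCs. In Shh-CreER TACs the basal markers summed to 2399 FPKM in cKO and 1789 FPKM in Het, and endothelial markers (5 genes) to 29.7 FPKM in cKO and 17.4 FPKM in Het. Lower in that cKO library were the hair shaft keratins (444 FPKM in cKO and 4946 FPKM in Het), melanocyte markers (23.1 FPKM in cKO and 93.6 FPKM in Het) and skeletal muscle markers (14.98 FPKM in cKO and 88.4 FPKM in Het). Their part in the differences of the integrins was not tested.

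Of the remaining 17 integrin subunits of the mouse, among them those of blood and mesenchymal cells, 4 averaged 1 FPKM or more in HFSCs. The highest of these was Itga5, the fibronectin receptor chain, with 5.70 FPKM in cKO and 5.05 FPKM in Het. In Shh-CreER TACs 6 of 17 did, and 2 of these 6 were higher in cKO, against 51.2% of all genes (median log2 difference -0.26). Itga1, higher in cKO, reached a mean of 1 FPKM only through the cKO library. Itga2b and Itga11, lower in cKO, did so only through the Het library. In these TACs Itga5 had 5.44 FPKM in cKO and 5.07 FPKM in Het, and Itgam had 4.14 FPKM in cKO and 5.71 FPKM in Het. In K15-CrePGR TACs 7 of 17 did (1 of them as a locus joined with another gene), all with a positive difference (median log2 difference 1.32). Both KO samples lay above both WT samples for 4 of them, against 26.8% of all loci. By limma 0 passed the adjustment (smallest adjusted p = 0.199). Itga9, Itgb2 and Itgae reached a mean of 1 FPKM only through the KO samples, so these values lean towards higher by construction. The median is the value of Itga9 itself. The leukocyte chains Itgam, Itgb2 and Itgae, named after their values were seen, were highest in KO 64. Itgam had 13.7 and 3.22 FPKM in KO 64 and KO 84, against 1.76 and 0.770 FPKM in WT 52 and WT 57, and Itgb2 had 7.66 and 0.955 FPKM in KO 64 and KO 84, against 0.652 and 0.182 FPKM in WT 52 and WT 57. Itgae was listed at 19.2 FPKM in KO 64 and at 0 in the other samples.

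The anchoring partners of alpha6 beta4 were mixed in HFSCs and mostly higher in the deleted TACs. In HFSCs 4 of the 7 genes of hemidesmosomes and laminin-332 were lower in cKO (median log2 difference -0.42). These were the transmembrane collagen Col17a1 (803 FPKM in cKO and 1322 FPKM in Het), the cytoplasmic linkers Dst (25.1 FPKM in cKO and 53.3 FPKM in Het) and Plec (40.0 FPKM in cKO and 54.0 FPKM in Het), and the laminin-332 chain Lamb3 (123 FPKM in cKO and 239 FPKM in Het). In Shh-CreER TACs 6 of 7 were higher in cKO, against 51.2% of all genes (median 0.71). Among them were Col17a1 (67.4 FPKM in cKO and 40.9 FPKM in Het) and Lamb3 (10.03 FPKM in cKO and 5.53 FPKM in Het). In that comparison the tetraspanin Cd151, a partner of laminin-binding integrins, had 79.3 FPKM in cKO and 93.0 FPKM in Het.

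In K15-CrePGR TACs all 7 of these genes had positive differences, against 47.3% of all loci (median 1.59). Both KO samples lay above both WT samples for 6 of the 7, against 26.8% of all loci. The exception was Col17a1, with 41.0 and 9.86 FPKM in KO 64 and KO 84, against 7.37 and 12.6 FPKM in WT 52 and WT 57. By limma 0 passed the adjustment, with a smallest adjusted p of 0.0734. Lamb3 had 13.4 and 18.6 FPKM in KO 64 and KO 84, against 1.54 and 1.25 FPKM in WT 52 and WT 57 (log2 difference 2.81 ± 0.23, SE; limma adjusted p = 0.0734). Plec was listed only as a locus joined with Parp10. Lama3 had 11.7 and 17.3 FPKM in KO 64 and KO 84, against 2.98 and 2.13 FPKM in WT 52 and WT 57. Both Lamb3 and Lama3 were higher in each KO sample than in either WT sample, and highest in KO 84. Dst had 15.2 and 6.97 FPKM in KO 64 and KO 84, against 2.84 and 2.70 FPKM in WT 52 and WT 57.

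Other matrix ligands were higher in each deletion by median. In HFSCs 8 of 10 were higher in cKO, against 54.2% of all genes, and 5 at least 2-fold, against 5.92% (median log2 difference 0.96). Tnc, a tenascin bound by alphav beta6 among others, had 86.3 FPKM in cKO and 8.23 FPKM in Het, the laminin chain Lamb1 had 21.0 FPKM in cKO and 3.34 FPKM in Het, and the type IV collagen Col4a1 had 53.1 FPKM in cKO and 13.2 FPKM in Het. In Shh-CreER TACs 10 of 12 were higher in cKO, against 51.2% of all genes, with 1 at least 2-fold, against 2.67% (median 0.40). That gene was Npnt, nephronectin, a ligand of alpha8 beta1, with 25.3 FPKM in cKO and 11.0 FPKM in Het. In K15-CrePGR TACs 11 of 11 had both KO samples above both WT samples, against 26.8% of all loci (median 1.55), with 0 past the limma adjustment. Npnt there had 8.53 and 12.2 FPKM in KO 64 and KO 84, against 0.952 and 1.76 FPKM in WT 52 and WT 57. Of the 11, Npnt and Lama5 were higher in KO 84 than in KO 64, and the others were higher in KO 64. Among those, Nid1 had 37.2 and 5.38 FPKM in KO 64 and KO 84, against 1.55 and 1.93 FPKM in WT 52 and WT 57. Col4a1 had 58.6 and 34.8 FPKM, against 4.54 and 5.31 FPKM. The part of the fibroblast markers of KO 64 in these differences was not tested.

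The cytoplasmic adaptors link beta tails to actin. Of 20 in HFSCs, 2 were at least 2-fold higher in cKO and 1 lower, against 5.92% and 4.6% of all genes (median log2 difference 0.30). The kindlin gene Fermt2 had 15.6 FPKM in cKO and 6.61 FPKM in Het, focal adhesion kinase Ptk2 had 26.7 FPKM in cKO and 12.4 FPKM in Het, and the tensin Tns1 had 21.7 FPKM in cKO and 75.7 FPKM in Het. Of 21 in Shh-CreER TACs, 1 was at least 2-fold higher and 2 lower, against 2.67% and 2.77% of all genes (median 0.13). Fermt2 was again higher, with 15.02 FPKM in cKO and 5.0 FPKM in Het, while Parvb had 1.25 FPKM in cKO and 8.86 FPKM in Het and Zyx, zyxin, had 7.0 FPKM in cKO and 19.0 FPKM in Het. In K15-CrePGR TACs 14 of 21 had both KO samples above both WT samples, against 26.8% of all loci (median 0.57), and 0 passed the limma adjustment. Among the 14, Parvb reached a mean of 1 FPKM only through KO 64, so the count leans towards higher values by construction for that gene. It had 3.23 and 0.323 FPKM in KO 64 and KO 84, against 0.280 and 0.273 FPKM in WT 52 and WT 57. Zyx in K15-CrePGR TACs had 38.4 and 24.2 FPKM in KO 64 and KO 84, against 11.2 and 9.92 FPKM in WT 52 and WT 57. It lay on the other side of its control than in Shh-CreER TACs.

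The 4 tetraspanins, membrane proteins that associate with integrins, had medians of 0.25 in HFSCs, -0.01 in Shh-CreER TACs and 0.36 in K15-CrePGR TACs, and the single 2-fold difference was Cd82 in HFSCs (54.1 FPKM in cKO and 122.8 FPKM in Het). Genes of latent TGF-beta, the cargo on which alphav beta6 and alphav beta8 act, had medians of 1.02 in HFSCs, 0.30 in Shh-CreER TACs and 1.20 in K15-CrePGR TACs. Tgfb3 and Ltbp1 reached a mean of 1 FPKM in K15-CrePGR TACs only through the KO samples, so the median there leans towards higher values by construction. In HFSCs Tgfb1 had 23.7 FPKM in cKO and 11.2 FPKM in Het and Tgfb3 had 24.4 FPKM in cKO and 8.86 FPKM in Het, beside the higher Itgb6 and Itgb8 of the same library. In Shh-CreER TACs Tgfb3 had 24.3 FPKM in cKO and 2.87 FPKM in Het, while Tgfb1 had 16.6 FPKM in cKO and 23.7 FPKM in Het. In K15-CrePGR TACs Tgfb1 had 27.2 and 20.3 FPKM in KO 64 and KO 84, against 11.5 and 13.7 FPKM in WT 52 and WT 57 (limma adjusted p = 0.188). The median over all genes kept was 0.05 in HFSCs, 0.01 in Shh-CreER TACs and -0.03 in K15-CrePGR TACs.

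**Figure D5:**
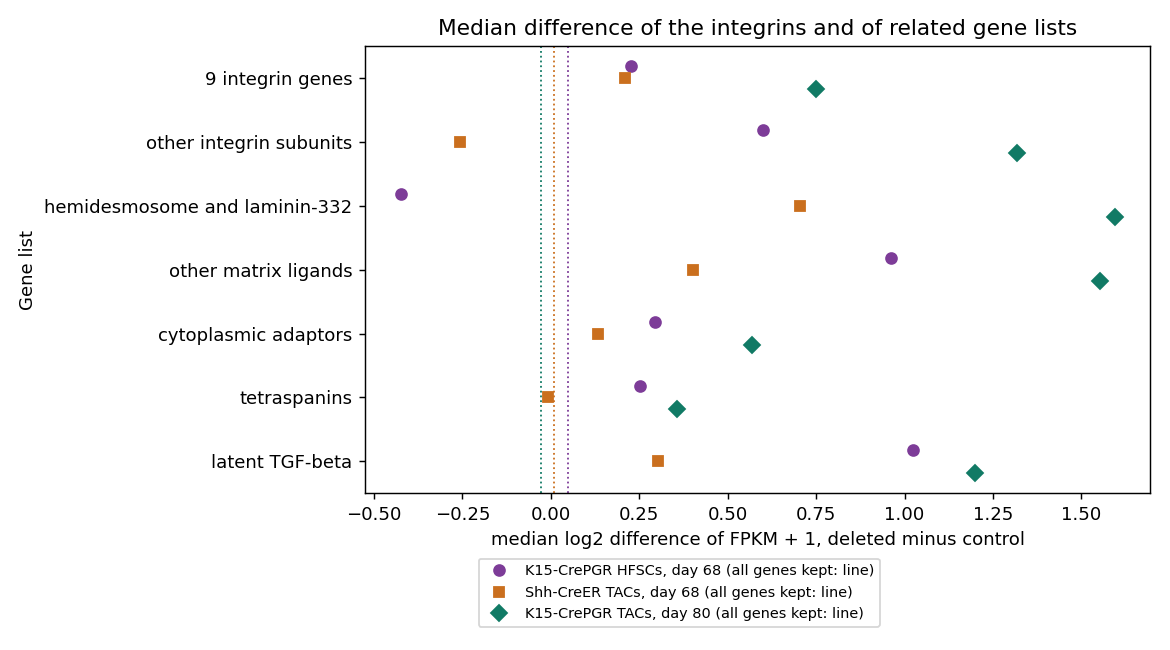
Median log2 difference of FPKM + 1, deleted minus control, of the 9 integrin genes and of 6 related lists in each table, with dotted lines at the median of all genes kept. The hemidesmosome and laminin-332 list lies at -0.42 in HFSCs and at 0.71 and 1.59 in the TAC tables.

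The genes most like Itgb4 and Itgb6 were sought by the Euclidean distance over the 3 within-table log2 differences, among genes averaging 5 FPKM or more in every table. Of 7393 genes, those nearest to Itgb4 were Lpl (lipoprotein lipase, distance 0.0888), Slc29a1 (0.275), Ephx1 (0.287) and H2-DMa (0.295). Lpl differed by -0.65 in HFSCs, 0.37 in Shh-CreER TACs and 1.66 in K15-CrePGR TACs. Of 7394 genes, those nearest to Itgb6 were Tgif2 (0.195), Vcl (vinculin, an actin linker of integrin adhesions, 0.209), Dse (0.213) and Chpt1 (0.231). Vcl differed by 0.94 in HFSCs, 0.32 in Shh-CreER TACs and 0.54 in K15-CrePGR TACs. With 3 differences per gene such neighbours are a description.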

How the data were processed

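Per the submitters' processing notes, reads were processed with TopHat and Cufflinks on mouse build mm9, whose versions and settings no label gives. The deposited values were taken as FPKM from the tool named and the values themselves; the headers name no unit. The 3 tables were normalized separately, and comparisons stay within a table. All 8 columns were matched to samples by title. Of entries that repeat a symbol, the one with the highest average was used, and unnamed loci of the K15-CrePGR TAC table (78.4% to 79.0% of its summed FPKM) were left out.

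Differences were computed here on log2(FPKM + 1). For K15-CrePGR TACs, limma 3.58.1 in R 4.3.3 (empirical Bayes, intensity trend, two-sided, Benjamini-Hochberg at 0.05) was fitted to 13565 named loci averaging 1 FPKM or more. On simulated data for that comparison (13565 loci), the share recovered was 6 of 67 at a true 2-fold, 49 of 67 at 4-fold and 61 of 66 at 8-fold, and 7 unchanged loci passed. The labels do not say that samples came from separate animals, so p-values measure the spread between samples. The other tables hold 1 library per group, where 2-fold was counted.

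Depth is unknown. From the most common ratio between libraries of values under 0.3 FPKM, relative depth was 0.856 (cKO to Het, HFSCs) and 1.00 (cKO to Het, Shh-CreER TACs), and 1.08 (KO 64), 0.911 (KO 84) and 1.13 (WT 57) times WT 52.

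The genes, lists, markers and tests were chosen with earlier results of these data known. Named genes are all 9 integrins, up to 4 genes per list with the largest difference at a mean of at least 5 FPKM (not every one is printed, and 2 items are not reported here), and 4 nearest genes each for Itgb4 and Itgb6. Alternatives were other pseudocounts, filters and scalings, a fit without trend, unnamed loci included, repeated symbols summed, and each K15-CrePGR TAC sample left out. Tables and plots were made in Python 3.11.15 (pandas 2.3.3, numpy 2.4.6, matplotlib 3.10.9).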

Additional observations from a re-analysis of the deposited data

Results flagged for a closer look

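Itga2 and Itgb4 had differences of opposite sign in different tables. In the 2 tables with 1 library per group, a deleted library lies on 1 side of its control whatever the gene. In K15-CrePGR TACs both KO samples lay above both WT samples for Itga2 and Itgb4. Of all loci there, 26.8% lay above in this way and 27.5% below. The difference between tables was not tested, since 2 tables hold 1 library per group. The log2 difference of Itgb4 was -0.61 in HFSCs, 0.45 in Shh-CreER TACs and 1.65 in K15-CrePGR TACs, so HFSCs lay below the TAC tables by 1.06 (difference -1.06) and 2.26 (difference -2.26). That of Itga2 was -0.90 in HFSCs, -0.18 in Shh-CreER TACs and 1.01 in K15-CrePGR TACs, giving -1.91 for HFSCs and -1.19 for Shh-CreER TACs against K15-CrePGR TACs. The control was Het at day 68 for HFSCs and Shh-CreER TACs and WT at day 80 for K15-CrePGR TACs. The tables were also normalized separately, so cell type, control, day and processing cannot be told apart in these gaps.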

How the results depend on the processing

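No integrin gene passed the limma adjustment in K15-CrePGR TACs under any of the alternatives run, and all 9 (6 of 6 with a filter of 5 FPKM) kept a positive difference in each. Their median lay between 0.53 and 0.97 when 1 sample was left out. The count of all loci called was 9 (5 higher, 4 lower; with quantile normalization 4 higher and 5 lower). It was 21 with a pseudocount of 0.1, 15 with a filter of 5 FPKM, 42 with no filter, 14 with unnamed loci included, and between 0 (without WT 52, and without WT 57) and 23 (without KO 84) with 1 sample left out, where a lone sample is assumed to vary like the other group. Of the 9, 3 were at least 2-fold higher in K15-CrePGR TACs, against 1 with a pseudocount of 5 or quantile normalization, 1 of 6 with a filter of 5 FPKM, 2 with median scaling and 2 to 4 with 1 sample left out. In HFSCs 0 genes reached 2-fold with a pseudocount of 5, against 1, and in Shh-CreER TACs 1 did with a pseudocount of 0.1, against 0. Near 0, the sign turned for Itgb5 in HFSCs (-0.0152 with median scaling, -0.0139 with quantile normalization) and Itgav in Shh-CreER TACs (-0.0101 with quantile normalization); the cause was not tested. No paired analysis was possible because the sample numbers 52, 57, 64 and 84 are not shared between groups.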
